A study of Sus scrofa with 6 samples.

Results

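Foam cells are macrophages of the artery wall that have filled with lipid droplets. TREM2, a surface receptor that binds lipids and lipoproteins, marks one of their states together with its adaptor TYROBP, with lysosomal proteins such as CD68 and LIPA, and with proteins that take up, bind or store fatty acids. The genes of this kind followed here were TREM2, TYROBP, GPNMB, LGALS3, CD9, FABP5, LPL, PLIN2, CD68 and LIPA. They were found by gene symbol, 10 of the 30477 genes in the table of FPKM values (fragment counts scaled by gene length and by library size), and all 10 passed the filter on low values. The rule was a list of symbols and used no measured value, but the list was drawn up with earlier results of these data known.

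RNA came from the abdominal aorta of male Wuzhishan miniature pigs, a Chinese breed. The 3 pigs of the NC group were fed normal chow for 6 months and the 3 pigs of the HFCF group a diet high in fat, cholesterol and fructose for the same time. The labels give an age of 3 to 4 months for both groups, while the study's methods give an older age at purchase. Each pig gave 1 library, numbered 1 to 3 within its group, and bulk tissue was sequenced, so the values are means over all cells of the wall. The study asked how the diet altered lipid handling and inflammation in the aorta.

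Markers of contractile smooth muscle, the main cell of the media, were present in all 6 libraries, with a summed FPKM over 8 genes of 15914 to 22729 in the NC pigs and of 7997 to 12892 in the HFCF pigs. The number of reads behind each value is unknown. Steps between low FPKM values put the relative depths between 1 and 1.37. The 13 mitochondrial protein genes took 4.55% to 6.78% of the summed FPKM in the NC pigs and 8.79% to 13.2% in the HFCF pigs. HFCF1 stood apart in red cell RNA, with an HBB level of 2846 FPKM against 21.3 to 175 FPKM in the other 5 pigs.

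The 10 genes together took 0.0580% to 0.0660% of all FPKM in the NC pigs and 0.144% to 0.331% in the HFCF pigs. Of these, TREM2, TYROBP, CD68, LIPA, GPNMB and LGALS3, 6 genes in all, rose on the HFCF diet, by 7.03-fold to 121-fold between group means. No call was made for LPL, FABP5, PLIN2 and CD9, whose group means were 1.44 to 2.85 times higher in the HFCF pigs. In limma's test of log2(FPKM + 0.1), with Benjamini-Hochberg adjustment over all 15384 genes tested, an adjusted p under 0.05 was thus reached by 6 of 10 genes in the higher direction, against 22.8% of all genes tested. In the lower direction it was reached by 0 of the 10 (0 at an unadjusted p under 0.05), against 6.16% of all genes. A ratio of group means above 2 with an unadjusted p under 0.05 also held for 6 genes, against 20.7% of all genes. Every HFCF value lay above every NC value in 7 of the 10 genes, against 36.1% of all genes. The median log2 fold change of the 10 genes was 2.96, and that of all tested genes 0.32. Median-ratio scaling moved the all-gene median to -0.0031, quantile normalization to -0.075 and rescaling to TPM to 0.0893, and 6 of the 10 genes were called under each. More cells of a type and more of an RNA per cell cannot be told apart in bulk tissue.

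**Figure D1:**
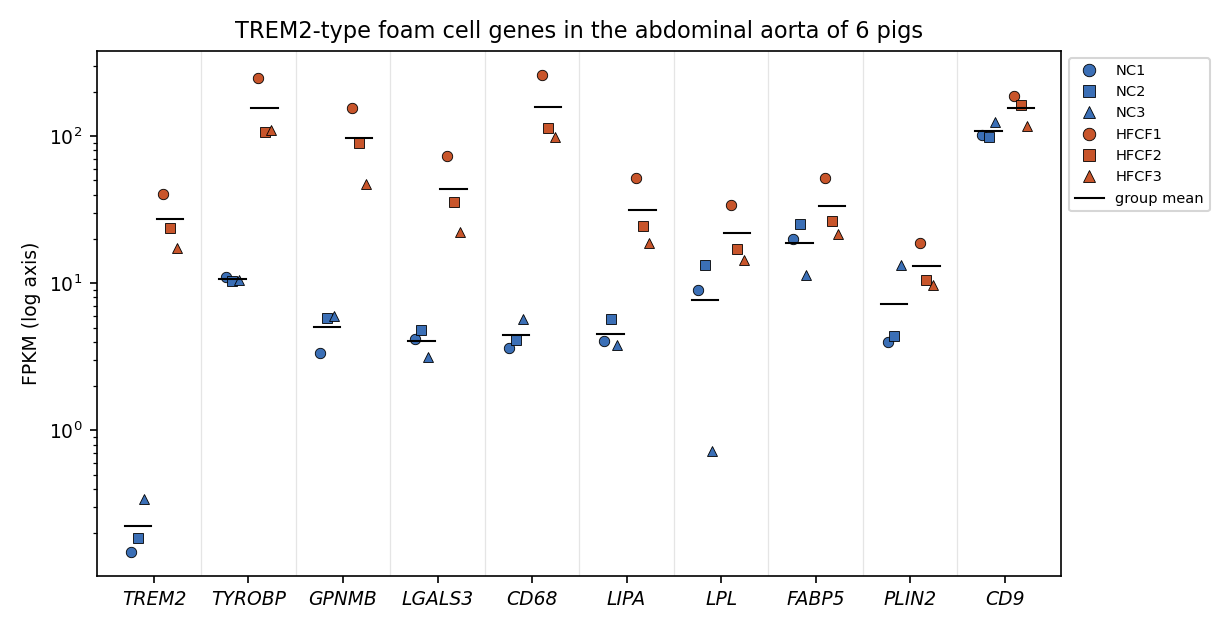
FPKM (log axis) of each of the 10 genes in the 3 NC pigs (blue) and the 3 HFCF pigs (orange), with a symbol per pig and a line at each group mean. The groups lie apart for TREM2, TYROBP, GPNMB, LGALS3, CD68 and LIPA, by 1.08-fold only for LPL, and overlap for FABP5, PLIN2 and CD9.

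TREM2 (ENSSSCG00000039270) was close to absent on normal chow. Its FPKM was 0.150, 0.185 and 0.340 in NC1, NC2 and NC3 and 40.6, 23.7 and 17.3 in HFCF1, HFCF2 and HFCF3. The lowest HFCF pig was 50.9 times above the highest NC pig. The means were 0.225 ± 0.101 and 27.2 ± 12.1 FPKM (SD, n = 3 pigs each), a 121-fold difference that rests on very low NC values. The log2 fold change was 6.35 ± 0.37 (SE, adjusted p = 0.00031, limma), on a scale that understates the change of a gene this low in the NC pigs. It ranked 12th of the 15384 tested genes.

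TYROBP (ENSSSCG00000002919), also called DAP12, carries the signal of TREM2 and of several other receptors of myeloid and natural killer cells into the cell. Unlike its receptor it was plainly present on normal chow, at 11.1, 10.4 and 10.4 FPKM in NC1, NC2 and NC3. On the HFCF diet it stood at 248, 106 and 110.3 FPKM. HFCF2 and HFCF3 were nearly level, and HFCF1 was 2.25 times above HFCF3. The log2 fold change was 3.73 ± 0.32 (adjusted p = 0.000903), or 14.5-fold between means. TYROBP was therefore 47.3 times the level of TREM2 in the NC means and 5.68 times in the HFCF means, both in FPKM, which is per length.

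CD68 (ENSSSCG00000017956) encodes a lysosomal membrane glycoprotein used as a general macrophage marker. Its FPKM was 3.65, 4.11 and 5.67 in NC1, NC2 and NC3, and 261, 114 and 98.0 in HFCF1, HFCF2 and HFCF3. The groups lay far apart, with the lowest HFCF pig 17.3 times above the highest NC pig. Between means CD68 was 35.2-fold higher, with a log2 fold change of 4.99 ± 0.38 (adjusted p = 0.000645). LIPA (ENSSSCG00000010450), the lysosomal acid lipase that frees cholesterol from cholesteryl esters, read 4.03, 5.69 and 3.79 FPKM in NC1, NC2 and NC3 and 51.6, 24.6 and 18.7 FPKM on the HFCF diet. The groups again did not overlap. Its log2 fold change was 2.67 ± 0.38 (adjusted p = 0.00386) and its means differed 7.03-fold, the least of the 6 genes that rose.

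GPNMB (ENSSSCG00000032241), a transmembrane glycoprotein of macrophages and pigment cells, was at 3.37, 5.80 and 6.03 FPKM in NC1, NC2 and NC3. In HFCF1, HFCF2 and HFCF3 it reached 156, 89.4 and 47.5 FPKM. The HFCF pigs spread 3.28-fold among themselves, yet the lowest was 7.87 times the highest NC value. In log2 terms the fold change was 4.12 ± 0.44 (adjusted p = 0.00171), 19.2-fold between means. LGALS3 (ENSSSCG00000005055), which encodes galectin-3, a lectin that binds galactosides, measured 4.16, 4.78 and 3.14 FPKM on normal chow and 72.8, 35.5 and 22.1 FPKM on the HFCF diet. All 3 HFCF pigs exceeded all NC pigs, HFCF3 by the least. Its log2 fold change was 3.25 ± 0.42 (adjusted p = 0.0029), 10.8-fold between means.

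CD9 (ENSSSCG00000022230), a tetraspanin of the plasma membrane that many cell types express, was the gene of the list with the highest level on normal chow. It read 102, 98.4 and 124 FPKM in NC1, NC2 and NC3 and 188, 162 and 117 FPKM in HFCF1, HFCF2 and HFCF3. HFCF3 fell inside the NC range. Its log2 fold change was 0.50 ± 0.21 with a 95% interval of 0.01 to 0.996 (adjusted p = 0.113). Without HFCF3 it was 0.70 and passed the threshold (adjusted p = 0.0418), which made 7 of the 10 genes.

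**Figure D2:**
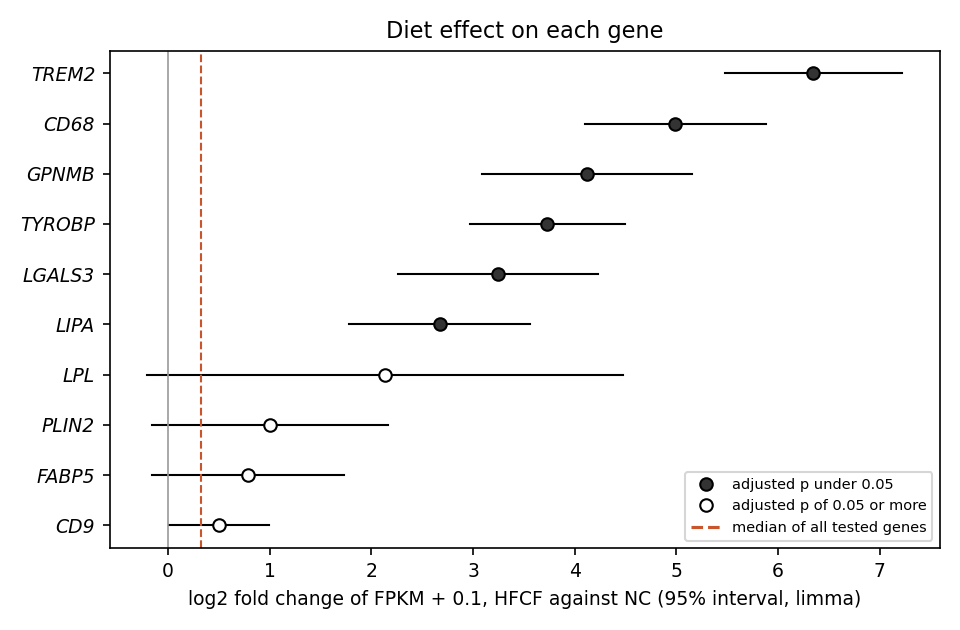
Log2 fold change of FPKM + 0.1 (HFCF against NC) of each gene with its 95% interval from limma, filled where the adjusted p was under 0.05, beside the median of all tested genes at 0.32 (dashed). The 6 filled genes run from 2.67 for LIPA to 6.35 for TREM2, and the intervals of LPL, PLIN2 and FABP5 include 0.

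The remaining genes belong to the handling of fatty acids. LPL (ENSSSCG00000040631), lipoprotein lipase, releases fatty acids from the triglycerides of lipoproteins. It was at 8.96, 13.3 and 0.728 FPKM in NC1, NC2 and NC3 and at 33.9, 17.2 and 14.4 FPKM in HFCF1, HFCF2 and HFCF3. NC3 was at least 12.3 times below the other NC pigs, and HFCF3 was only 1.08 times above NC2. The log2 fold change was 2.14 ± 0.99 with a 95% interval of -0.20 to 4.47 (adjusted p = 0.147), and it was 0.89 without NC3 (adjusted p = 0.162).

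FABP5 (ENSSSCG00000006153), a cytosolic fatty acid binding protein, was at 20.0, 25.3 and 11.3 FPKM in NC1, NC2 and NC3. In HFCF1, HFCF2 and HFCF3 it was at 51.8, 26.5 and 21.7 FPKM. HFCF2 was level with NC2, HFCF3 lay below it, and the difference of the means came mostly from HFCF1. This gave a log2 fold change of 0.79 ± 0.40 (95% interval -0.15 to 1.73, adjusted p = 0.179), and 0.42 without HFCF1 (adjusted p = 0.418).

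PLIN2 (ENSSSCG00000035863), perilipin 2, coats lipid droplets and is the usual droplet marker outside fat tissue. It was at 3.98, 4.36 and 13.4 FPKM in NC1, NC2 and NC3, and at 18.9, 10.6 and 9.69 FPKM in HFCF1, HFCF2 and HFCF3. NC3, the lowest NC pig for LPL and FABP5, was the highest for PLIN2 and lay above 2 of the 3 HFCF pigs. The log2 fold change was 1.01 ± 0.49 (95% interval -0.15 to 2.16, adjusted p = 0.165). Without NC3 it was 1.56 and PLIN2 passed (adjusted p = 0.0238), which again made 7 of the 10 genes.

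Adipocytes also express LPL, and the aorta is wrapped in fat, so adipocyte markers were read beside these 3 genes. ADIPOQ, the adipocyte hormone adiponectin, was at 39.1, 59.9 and 1.22 FPKM in NC1, NC2 and NC3 and at 4.08, 0.301 and 4.04 FPKM in HFCF1, HFCF2 and HFCF3. PLIN1, the perilipin of fat cells, was at 19.1, 33.3 and 0.669 FPKM and at 1.40, 0.245 and 4.46 FPKM. Among the NC pigs both markers followed the order of LPL, with NC2 highest and NC3 lowest. The same held for FABP4, the fatty acid binding protein of fat cells, at 108, 163 and 33.1 FPKM on normal chow and 86.4, 65.7 and 71.8 FPKM on the HFCF diet. The summed FPKM of the 8 adipocyte markers ranged from 90.3 to 515 in the NC pigs and from 178 to 319 in the HFCF pigs. In all 6 pigs this sum was mostly CFD, another of the 8, and FABP4. CFD was at 156, 214 and 52.3 FPKM on normal chow and at 218, 105 and 205 FPKM on the HFCF diet. The HFCF means of ADIPOQ and PLIN1 were 0.084 and 0.115 times the NC means, and both genes were above 0 in all 6. None of the 8 passed limma's adjusted threshold with all pigs (0 at an unadjusted p under 0.05). In that fit 22.8% of all tested genes were called higher and 6.16% lower. Without NC3, 4 of the 8 were called lower. That fit called 3513 genes in both directions together, against 4453 with all pigs. The part of fat tissue in the levels of LPL and FABP5 was not tested.

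**Figure D3:**
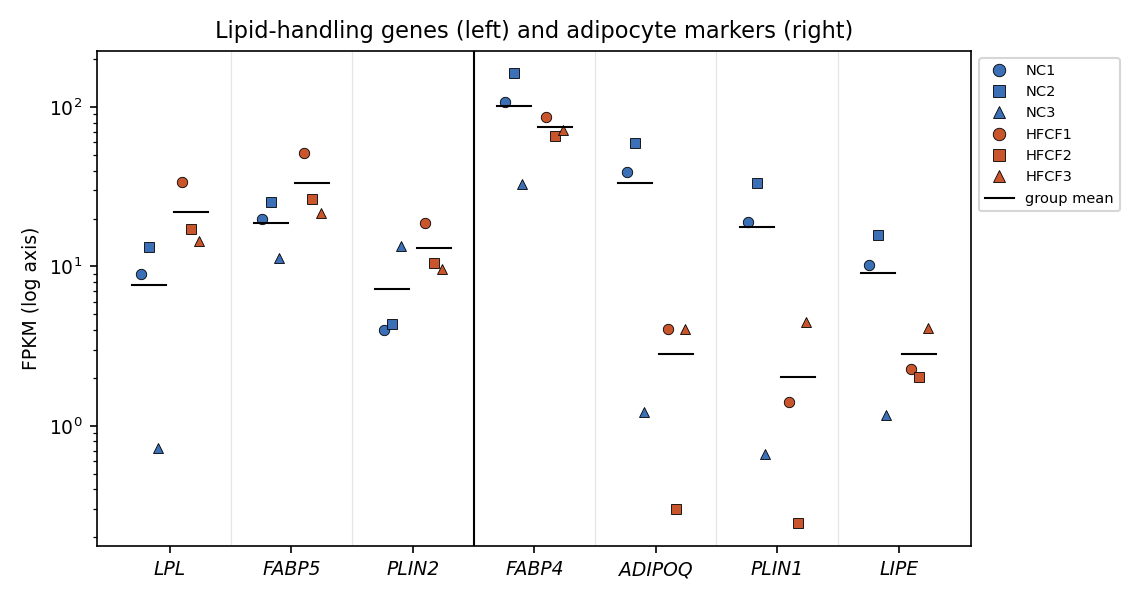
FPKM (log axis) of LPL, FABP5 and PLIN2 (left of the black line) and of the adipocyte markers FABP4, ADIPOQ, PLIN1 and LIPE (right) in each pig, with a line at each group mean. NC3 (blue triangle) is the lowest NC pig in LPL, FABP5 and all 4 markers and the highest NC pig in PLIN2.

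The HFCF pigs kept the same order in nearly the whole list. HFCF1 was the highest of the 3 in 10 of the 10 genes, against 42.5% of all tested genes and 57.7% of the 3505 genes called higher. The order HFCF1, HFCF2, HFCF3 held for 9 of the 10 genes and for 24.4% of all tested genes, with TYROBP the exception. The 10 genes share these 3 libraries, so this is a description of the pigs and not evidence from 10 separate genes. HFCF1 also held the highest level of CSF3R, a receptor of neutrophils and monocytes, at 55.9 FPKM against 8.38 and 4.55 FPKM in HFCF2 and HFCF3. The 4 neutrophil markers in the table summed to 0.185 to 0.395 FPKM in the NC pigs and to 4.55 to 67.1 FPKM in the HFCF pigs, mostly CSF3R. S100A8 was listed at 0 in all NC pigs and in HFCF3. MMP8 and MPO reached at most 0.0413 and 0.0587 FPKM, both in HFCF1, and were below the filter. The 7 T cell markers summed to 0.545 to 0.900 FPKM and to 2.78 to 12.4 FPKM, again highest in HFCF1, and TRAT1 was listed at 0 in NC1, CD4 in NC2 and CD3G in HFCF1. The part of these cells and of blood in the HFCF1 values was not tested. Without HFCF1, 6 of the 10 genes were still called, with a median log2 fold change of 2.52.

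Ratios to CD68 within each pig set each gene against a general macrophage marker. A factor common to a library cancels in the percent of CD68, but not fully in the log2 ratio tested, which adds 0.1 to both values, and that of TREM2 ranged from 1.30 to 1.72 under the other scalings. As CD68 was among the genes that rose most, nearly every gene fell relative to it. With limma over all 15383 other genes, 99.1% had a lower ratio in the HFCF pigs and 0.0845%, or 13 genes, a higher one at an adjusted p under 0.05. Of the 9 other foam cell genes, 7 had a lower ratio and 1, TREM2, a higher one. All these ratios contain the same 6 CD68 values, so limma shared a spread that is mostly that of CD68, with 276 degrees of freedom against 7.1 in the fit of the FPKM values, and its p-values for ratios are not those of independent genes. With each ratio given its own spread only, a choice made after seeing the data, the counts over the 9 genes were again 7 and 1, with GPNMB called in place of LPL. An exact two-sided permutation test over the 6 pigs gave p = 0.1 for 8 of the 9 ratios, the smallest that 3 pigs against 3 allow, and p = 0.3 for LPL.

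TREM2 was 4.11%, 4.51% and 5.99% of the CD68 FPKM in NC1, NC2 and NC3 and 15.6%, 20.8% and 17.7% in HFCF1, HFCF2 and HFCF3. The groups did not overlap, and the mean ratio was 3.70 times higher in the HFCF pigs (4.87% ± 0.994 against 18.0% ± 2.64, SD, n = 3 pigs each). On the log2 scale the difference was 1.36 ± 0.57 (SE, adjusted p = 0.0179, limma). It lost the threshold without NC1 (adjusted p = 0.0706), without NC2 (0.069) and without HFCF2 (0.0752), and with a pseudocount of 1, which is above every NC value of TREM2, it turned to -0.29. Against 4 other denominators, AIF1, PTPRC, CSF1R and the mean of 11 macrophage markers, the TREM2 difference was 1.21, 2.43, 3.79 and 3.04 and passed each time. Each is the log2 fold change of TREM2 less that of the denominator. PTPRC, CSF1R and the marker mean rose less than CD68, so their larger differences were fixed by construction and are not independent results.

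TYROBP went the other way against CD68. It was 304%, 252% and 184% of CD68 on normal chow and 94.9%, 92.8% and 113% on the HFCF diet, without overlap, a log2 difference of -1.26 ± 0.60 (adjusted p = 0.0371). The call was lost without NC1, NC2, NC3 or HFCF2 (adjusted p = 0.0517 to 0.164), with a pseudocount of 1 (0.0638) and against PTPRC (0.83). The direction depended on the denominator, since TYROBP was higher by 1.17 relative to CSF1R, the receptor for the growth factor of macrophages, and by 0.42 relative to the mean of the 11 macrophage markers. GPNMB was at 92.4%, 141% and 106% of CD68 in NC1, NC2 and NC3 and at 59.6%, 78.5% and 48.5% in HFCF1, HFCF2 and HFCF3. Those groups lay apart by a small margin, and the log2 difference was -0.87 ± 0.59 (adjusted p = 0.142). Its direction also depended on the denominator. The GPNMB difference was 1.57 relative to CSF1R, 0.81 relative to the mean of the 11 macrophage markers, 0.20 relative to PTPRC and -1.01 relative to AIF1. CD68 itself had a log2 fold change of 4.99 and AIF1 one of 5.13, but PTPRC had 3.92 and CSF1R 2.56, and the 11 markers had a median of 3.33.

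LIPA and LGALS3 started level with CD68 on normal chow and ended at a fraction of it. LIPA was 110.5%, 138% and 66.9% of CD68 on normal chow and 19.8%, 21.6% and 19.1% on the HFCF diet, a log2 difference of -2.32 ± 0.58 (adjusted p = 8.45e-05). LGALS3 was 114%, 116% and 55.3% and then 27.9%, 31.1% and 22.6%, a log2 difference of -1.74 ± 0.58 (adjusted p = 0.00304). Neither group overlapped the other. Relative to CSF1R both signs turned, to 0.11 for LIPA and 0.69 for LGALS3.

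Of the 9 genes, those that did not pass on their own fell the most against CD68. This order follows from the fit of the FPKM values, since each log2 ratio difference is the gene's own log2 fold change less that of CD68. The differences were -4.49 for CD9, -4.20 for FABP5, -3.98 for PLIN2 and -2.85 for LPL. All 4 were smaller falls than the median of all tested genes, -4.67. CD9 went from 2801%, 2395% and 2195% of CD68 in NC1, NC2 and NC3 to 72.1%, 142% and 119% in HFCF1, HFCF2 and HFCF3, 22.1 times lower between mean ratios. FABP5 went from 547%, 617% and 199.7% to 19.8%, 23.3% and 22.2%, and PLIN2 from 109%, 106% and 236% to 7.23%, 9.27% and 9.90%. LPL overlapped, since NC3 at 12.8% lay below all HFCF pigs at 13.0%, 15.1% and 14.7%, while NC1 and NC2 were at 245% and 323%. CD9, FABP5 and PLIN2 remained lower against all 4 other denominators. Within the HFCF group the ratios to CD68 differed 1.13-fold to 1.98-fold between the highest and lowest pig, while the FPKM values of the same 9 genes differed 1.61-fold to 3.29-fold. CD9 was the exception, with a wider spread in the ratio (1.98-fold) than in FPKM (1.61-fold).

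**Figure D4:**
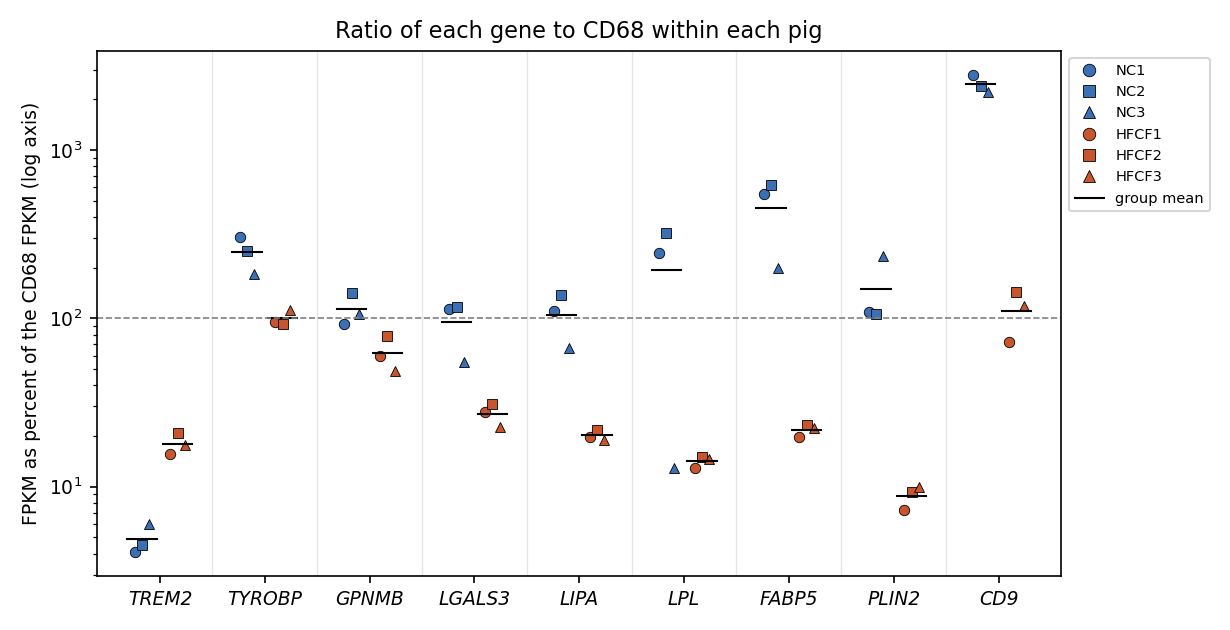
FPKM of each gene as a percent of the CD68 FPKM of the same pig (log axis), NC in blue and HFCF in orange, with a line at each group mean and a dashed line at equality with CD68. TREM2 alone of the 9 genes is higher in the HFCF pigs, at 15.6% to 20.8% against 4.11% to 5.99%, and only LPL overlaps between the groups.

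The profile of TREM2 over the 6 pigs was compared with those of 10077 genes with a symbol and a mean of at least 1 FPKM, by the root mean square difference of centred log2(FPKM + 0.1). The nearest gene was SLC2A5, a fructose transporter, at 0.288, followed by CXCL14, a chemokine, at 0.289 and APOE, a lipoprotein component that binds TREM2, at 0.307. APOE was at 12.4, 16.8 and 13.7 FPKM in NC1, NC2 and NC3 and at 1826, 882 and 635 FPKM in HFCF1, HFCF2 and HFCF3. MCOLN3, CLEC7A, TCN1, S100A4 and ADAM28 completed the nearest 8, at 0.504 to 0.576. Of the other foam cell genes CD68 was nearest, at rank 15, followed by GPNMB at 68, TYROBP at 110, LGALS3 at 175 and LIPA at 274, while LPL, PLIN2, FABP5 and CD9 ranked from 1313 to 3593. The measure is small for any gene with a like size of diet difference in these same libraries.

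The GO and KEGG terms deposited with the values link the genes in several ways. FABP5, LPL and PLIN2 carry the KEGG pathway of PPAR signalling, which 1.09% of the annotated tested genes carry, and none of the 3 was called. Other terms join a called gene with one that was not, such as the KEGG pathway of cholesterol metabolism for LIPA and LPL (0.694% of annotated genes) and the GO term of integrin binding for GPNMB and CD9 (0.675%). LIPA and CD68 carry the lysosome pathway, held by 2.03% of annotated genes, and TREM2 and TYROBP that of osteoclast differentiation, held by 2.01%. TREM2 and LPL share the GO term of lipoprotein particle binding, which 0.0621% of annotated genes have.

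The partners of TREM2 and TYROBP rose as well in part. Of 14 tested genes for ligands, sheddases and downstream signalling, 9 were called higher and 0 lower, with a median log2 fold change of 2.31. Over all tested genes 22.8% were called higher and 6.16% lower. APOE led with a log2 fold change of 6.14 ± 0.37, followed by PTPN6, a phosphatase of blood cells, with 4.35 ± 0.41 and BTK, a kinase of myeloid and B cells, with 4.05 ± 0.34 (adjusted p = 0.00035, 0.00115 and 0.000903). SYK, the kinase that docks on phosphorylated TYROBP, was at 0.287, 0.472 and 0.369 FPKM in the NC pigs and at 8.62, 3.75 and 2.48 FPKM in the HFCF pigs (log2 fold change 3.23, adjusted p = 0.00396). A further list of 7 tested genes held receptors of the TREM family or coupled to TYROBP, and beside them OSCAR. OSCAR is not counted here as a partner of TYROBP. Of the 7 genes, 2 were called higher, near the share of 22.8% over all tested genes. CLEC5A was listed at 0 in all NC pigs and at 7.44, 3.55 and 1.47 FPKM in the HFCF pigs, and OSCAR, an osteoclast receptor, rose by 1.80 ± 0.37 on the log2 scale (adjusted p = 0.0133). TREM1, by contrast, was at 5.52 FPKM in HFCF1 and listed at 0 in HFCF2 and HFCF3.

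All 11 macrophage markers tested beside CD68 were called higher, against 22.8% of all tested genes. Their median log2 fold change was 3.33, and 9 to 11 were called under the alternatives. AIF1, an actin-binding protein of macrophages, had 5.13 ± 0.36, SPI1, a myeloid transcription factor, 4.56 ± 0.43, and C1QB, a complement chain, 4.43 ± 0.34. Among 19 other genes of lipid-associated macrophages, 13 were called higher and 0 lower, against 22.8% and 6.16% of all tested genes, with a median of 1.59. ACP5, the tartrate-resistant phosphatase of osteoclasts and macrophages, changed most, from 0.166, 0.329 and 1.63 FPKM in NC1, NC2 and NC3 to 133, 80.7 and 49.3 FPKM in HFCF1, HFCF2 and HFCF3. SPP1, the secreted protein osteopontin, rose by 5.98 ± 0.65 on the log2 scale (adjusted p = 0.00179). Of 5 tested osteoclast markers 4 were called higher, against 22.8% of all tested genes. They were led by ACP5, ATP6V0D2, a proton pump subunit, and MMP9, a gelatinase, at 7.12, 5.24 and 5.21. CALCR, also called, and DCSTAMP, not called, passed the filter on low values only through the HFCF pigs. The 6 osteoclast markers in the table, OCSTAMP among them, summed to 0.328 to 2.44 FPKM in the NC pigs and 56.3 to 176 FPKM in the HFCF pigs, mostly ACP5, which macrophages also express.

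**Figure D5:**
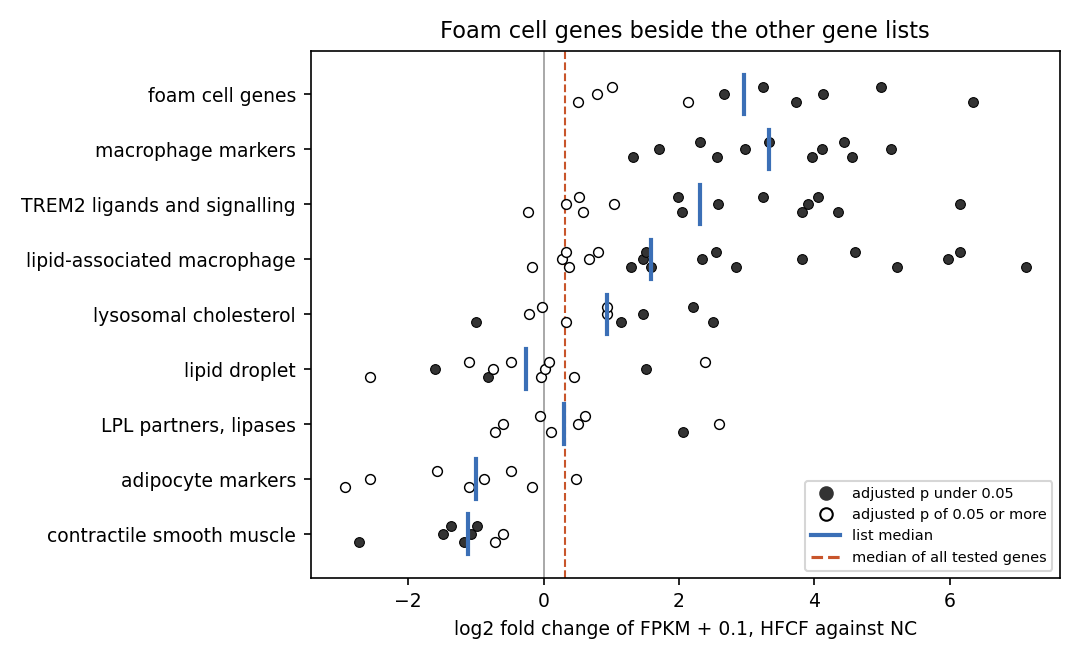
Log2 fold change of FPKM + 0.1 (HFCF against NC) of each tested gene in the foam cell list and 8 other lists, filled where the adjusted p was under 0.05, with the list median (blue bar), 0 (grey line) and the median of all tested genes at 0.32 (dashed). The medians are 2.96 for the foam cell genes, 3.33 for the macrophage markers, -0.25 for the lipid droplet genes and -1.12 for contractile smooth muscle. Some genes stand in several lists, such as PLIN1, CIDEC and LIPE among both the lipid droplet genes and the adipocyte markers.

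Few of the genes that work beside LPL, PLIN2 and FABP5 were called, and those in both directions. Some that were not called differed greatly between group means but varied widely between pigs. CIDEB was 12.8-fold higher in the HFCF pigs, and PLIN1 was at 0.115 times its NC mean. Of 8 tested LPL partners and other lipases 1 was called higher, against 22.8% of all tested genes. It was GPIHBP1, which holds LPL on the capillary wall, with a log2 fold change of 2.06 ± 0.56 (adjusted p = 0.0325). Of 12 lipid droplet genes beside PLIN2, 1 was called higher and 2 lower, against 22.8% and 6.16% of all tested genes. PLIN1, CIDEC and LIPE of this list, and FABP4 below, are also among the adipocyte markers, so these lists are not separate. G0S2, an inhibitor of triglyceride breakdown, rose by 1.51 ± 0.37, while PLIN4 and the triglyceride lipase PNPLA2 had -1.60 ± 0.42 and -0.82 ± 0.15 (adjusted p = 0.0236, 0.0296 and 0.00962). G0S2 lost its call under median-ratio scaling and quantile normalization (adjusted p = 0.0628 and 0.069), and GPIHBP1 under all 3 other scalings (adjusted p = 0.0506 to 0.0633). The 3 tested relatives of FABP5, FABP3, FABP4 and FABP7, gave no call in limma's test (0 at an unadjusted p under 0.05).

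Around LIPA, 4 of 10 genes listed for cholesterol handling in or outside the lysosome were called higher and 1 lower, against 22.8% and 6.16% of all tested genes. SOAT1, which esterifies cholesterol, had a log2 fold change of 2.50 ± 0.44, NCEH1, a cholesteryl ester hydrolase outside the lysosome, 2.20 ± 0.43, and NPC2, which passes cholesterol to the lysosomal membrane, 1.47 ± 0.24 (adjusted p = 0.00768, 0.0114 and 0.00592). MCOLN1, a lysosomal calcium channel named here after its value was seen, fell by 0.999 ± 0.16 on that scale (adjusted p = 0.00623). Of the 4 MiT/TFE factors, which control lysosomal genes, 2 were called higher, against 22.8% of all tested genes. TFEC and MITF had log2 fold changes of 3.15 ± 0.39 and 1.39 ± 0.37 (adjusted p = 0.00257 and 0.0296). TFEC was at 0.0261, 0 and 0.0581 FPKM in NC1, NC2 and NC3 and at 1.47, 0.730 and 0.963 FPKM in HFCF1, HFCF2 and HFCF3. It passed the filter on low values only through the HFCF pigs. MITF lost its call under all 3 other scalings (adjusted p = 0.0605 to 0.0918).

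Relatives and partners of LGALS3 and CD9 were read in the same way. Of 4 tested galectins and partners 1 was called higher, near the share of 22.8% over all tested genes. It was LGALS3BP, the galectin-3 binding protein, at 1.60 ± 0.42 (adjusted p = 0.0291), which lost its call under median-ratio scaling and rescaling to TPM. Of 9 tetraspanins and partners of CD9, 2 were called higher and 1 lower, near the shares of 22.8% and 6.16% over all tested genes. CD53 and CD37, tetraspanins of white blood cells, had log2 fold changes of 4.20 ± 0.39 and 3.21 ± 0.47 (adjusted p = 0.00111 and 0.00439), and CD151, a broadly expressed one, had -0.999 ± 0.23 (adjusted p = 0.0189). The other 6, like CD9 at 0.50, were not called, and the median of the 9 was 0.26.

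Beside these changes 6 of 8 contractile smooth muscle markers were called lower, against 6.16% of all tested genes, led by MYOCD, the coactivator of the contractile program, at -2.72 ± 0.43, with DES and SMTN at -1.48 ± 0.30 and -1.37 ± 0.28. Without NC1 only 2 of them were called. Of 8 endothelial markers 1 was called lower and of 6 fibroblast markers 1 higher, against 6.16% and 22.8% of all tested genes. The part of a changed cell mix in the foam cell gene levels was not tested.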

How the data were processed

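Total RNA from the abdominal aorta of 3 NC and 3 HFCF pigs was sequenced as paired-end reads. Per the methods and labels, the authors trimmed with cutadapt 1.9, aligned with HISAT2 to an earlier pig genome build and quantified with StringTie. The authors deposited FPKM values, which fix each gene as a share of its library. No coordinates are given, since the annotation at hand is of another build.

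A deposited 0.0001 FPKM was read as 0. The test ran on log2(FPKM + 0.1) for 15384 genes whose mean reached 0.1 FPKM (limma 3.58.1, R 4.3.3, eBayes with trend, diet as the only factor, Benjamini-Hochberg). Ratios used log2 of (FPKM + 0.1) over that of CD68. The members and lists were chosen with earlier results of these data known. The text names all 10 members, the 3 called genes with the largest change of each list, markers beside a result, and the 8 genes nearest TREM2. The fit was tested on simulated data. Same-numbered pigs did not deviate together. The p-values set each difference against the spread among 3 pigs per group, which limma shares in part over all tested genes. The fit had 7.1 degrees of freedom for the FPKM values and 276 for the ratios. Alternatives covered pseudocount, filter, scaling, trend, block, denominator and each pig left out.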

Additional observations from a re-analysis of the deposited data

How the results depend on the processing

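The 6 genes called higher among the 10 remained called under every alternative tried, namely pseudocounts of 1 and 0.01, other filters, 3 scalings, no variance trend, the study's thresholds and each pig left out, with 6 or 7 genes called in all. The replicate number does not pair the pigs (correlations of deviations 0.0206, -0.0795 and -0.0724), and with it as a replicate block 6 of the 10 genes were called, while 2772 genes in place of 4453 were called in all. The median log2 fold change of the 10 genes ranged from 2.52 to 3.31 with 1 pig left out. The ratios to CD68 depended more on the choices. The count of ratios called higher was 0 with a pseudocount of 1, 0 with the replicate block (TREM2 adjusted p = 0.0552, and TYROBP also lost its call at 0.126), 0 to 1 with 1 pig left out and 3 with CSF1R as denominator. The count called lower was 3 with the mean of the other macrophage markers, 3 with CSF1R and 4 with PTPRC, and 6 to 8 with 1 pig left out. The sign turned for TREM2 with a pseudocount of 1 (-0.29). With the marker mean it turned for TYROBP (0.42) and GPNMB (0.81), and with PTPRC for GPNMB (0.20). With CSF1R it turned for TYROBP (1.17), GPNMB (1.57), LGALS3 (0.69) and LIPA (0.11). CSF1R, PTPRC and the marker mean rose less than CD68, which by construction raises every ratio to them. Over the 96 genes of the 11 related lists, alternatives that were added after seeing the data gave 33 to 45 genes called higher (44 in the fit reported) and 2 to 9 called lower (4). The latter count was 9 under median-ratio scaling, 9 after rescaling to TPM, 2 with the replicate block and 2 to 8 with 1 pig left out, and the cause was not tested. The read depth is unknown, so no counting error can be given for the low NC values of TREM2.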
